A study of Mus musculus with 6 samples.

Results

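The genes that license replication origins and run the replication fork were compared between WT ASCs and *Bdh2*-knockout ASCs. The members are 52 genes taken by name, out of 54715 genes in the count table, and each of the 52 names was found in it. They fall into 15 origin licensing genes, 9 polymerase genes, 24 fork factors and 4 genes of nucleotide supply. ASCs (advanced embryonic stem cells) are mouse pluripotent stem cells grown with leukemia inhibitory factor, CHIR99021, BMP4 and activin A. By the labels, both groups derive from embryonic stem cells of a female 129/sv mouse crossed to a GOF/GFP male, so both carry the *Oct4*-GFP reporter, and no age or further treatment is given. The knockout line was made with CRISPR/Cas9 and guides near the *Bdh2* start codon and was expanded from a single colony with a frameshift deletion on both alleles, so *Bdh2* loss and anything else that sets this clone apart cannot be told apart. RNA of 3 WT ASC and 3 *Bdh2*-knockout ASC replicates was sequenced. The labels do not say whether the replicates were separate cultures, and the p-values then measure only the spread between these samples, which may be technical.

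A cell licenses its origins before S phase. The origin recognition complex (ORC) binds the origin, CDC6 and CDT1 load the MCM2-7 helicase there, and geminin holds CDT1 back so that no origin is licensed again in the same cycle. At the start of S phase the CDC7-DBF4 kinase acts on the loaded helicase, CDC45 and GINS join it to form the CMG helicase, and the polymerases, sliding clamp and single-strand binding proteins follow at the fork. Pluripotent stem cells spend much of their short cycle in S phase and express these genes at high levels, and many of the genes are textbook targets of E2F transcription factors.

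The libraries held 18927748 to 28333541 counts on genes. Expression is given as CPM, counts scaled to a common library size with edgeR's TMM factors, and 3 counts correspond to 0.109 to 0.155 CPM, which covers counting error only. The lowest count of any member in any library was 188, far above this floor, and all 52 were among the 16758 genes that passed the filter on low counts. *Bdh2* had 203, 193 and 209 counts in WT ASCs and 164, 136 and 129 counts in *Bdh2*-knockout ASCs. Its log2 fold change, always *Bdh2*-knockout ASCs over WT ASCs, was -0.79 (standard error 0.12) with an adjusted p of 2.46e-04 (edgeR quasi-likelihood fit, Benjamini-Hochberg). The libraries also differed in transcripts of other cell types. The summed level of 16 hepatocyte markers was 573, 352 and 55.0 CPM in WT ASC replicates 1 to 3 and 46.2, 167 and 31.8 CPM in *Bdh2*-knockout ASC replicates 1 to 3, with *Alb* (serum albumin) alone at 331, 197 and 22.0 CPM in WT ASCs and 17.3, 88.3 and 8.68 CPM in *Bdh2*-knockout ASCs. Of these 16 markers, 13 passed the test as lower in *Bdh2*-knockout ASCs. All 12 primitive endoderm markers were higher in *Bdh2*-knockout ASCs, from a summed level of 367 to 407 CPM in WT ASCs to 888 to 977 CPM. Fibroblast markers summed to 181 to 222 CPM in WT ASCs and 217 to 235 CPM in *Bdh2*-knockout ASCs, with 1 of 7 tested markers higher and 1 lower. Pluripotent stem cell markers summed to 7985 to 8123 CPM in WT ASCs and 8664 to 8793 CPM in *Bdh2*-knockout ASCs, with 7 of 12 higher and 1 lower, so the markers of the labelled cell type were present.

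Replication genes were called in both directions, with small changes. At an adjusted p under 0.05, 26 of the 52 passed the test, 17 higher and 9 lower in *Bdh2*-knockout ASCs. Among all tested genes 41.7% passed, 21.0% as higher and 20.8% as lower. Of the 9389 tested genes with a mean of at least 10 CPM, a level that every member reached, 50.9% passed, 28.7% as higher and 22.2% as lower. The share of members called is near that of genes at or above this level. The median log2 fold change was 0.06 over the members, 0.02 over the genes with at least 10 CPM and -0.01 over all tested genes. The median size of the change, without its sign, was 0.14 for the members, 0.17 for the genes with at least 10 CPM and 0.23 for all tested genes. The extremes were *Orc4* at -0.41 (1.33-fold lower) and *Dut* at 0.44 (1.36-fold higher). The CPM values of the genotypes did not overlap for 31 of the 52 members (59.6%), 19 of them higher and 12 lower, against 52.4% of all tested genes. In bulk RNA, more cells in S phase and more RNA of a gene per cell cannot be told apart.

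**Figure D1:**
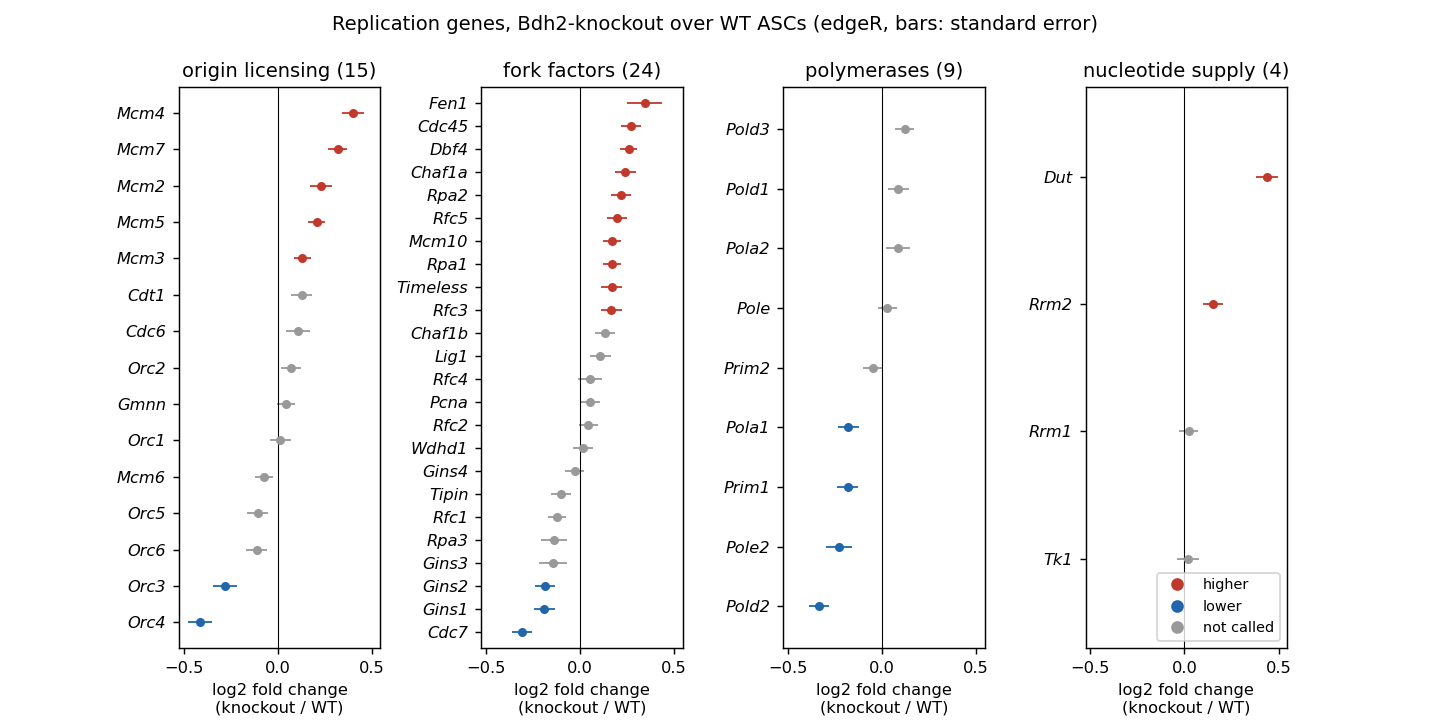
Log2 fold changes (*Bdh2*-knockout ASCs over WT ASCs, x axis) of the 52 replication genes in 4 classes, with bars for the standard error and colour for the edgeR call at an adjusted p under 0.05. Changes run from -0.41 for *Orc4* to 0.44 for *Dut*, and 0 of the 9 polymerase genes were called higher.

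The direction of the calls was uneven by class, and the classes were not tested against each other. Origin licensing had 5 genes higher and 2 lower of 15, fork factors 10 higher and 3 lower of 24, polymerases 0 higher and 4 lower of 9, and nucleotide supply 2 higher and 0 lower of 4. The share called in either direction ran from 44.4% of the polymerases to 54.2% of the fork factors. These shares are near the 50.9% of genes with a mean of at least 10 CPM. Of those genes, 28.7% were higher and 22.2% lower. At an unadjusted p under 0.05, 1 polymerase gene was higher, and DESeq2 and limma-voom called 0 polymerase genes higher. The summed level of the 52 genes was 7300 to 7635 CPM in WT ASCs and 7926 to 8072 CPM in *Bdh2*-knockout ASCs, and that of the 9 polymerase genes was 921 to 966 CPM in WT ASCs and 888 to 936 CPM in *Bdh2*-knockout ASCs. The balance depended on scaling. With library totals in place of TMM, which moved the median of all genes by -0.06, 11 members were higher and 16 lower, and the share of higher genes among all called genes went from 50.3% to 38.0%. Without the 3 libraries with the most hepatocyte transcripts, in a fit of 1 WT ASC library against 2 *Bdh2*-knockout ASC libraries that assumes the lone library varies like the others, 14 members were called higher and 7 lower. Of the 17 higher and 9 lower calls, 11 and 5 were shared with this fit, 10 calls were lost, and 5 other members were called, *Orc2*, *Pcna* and *Rfc4* as higher and *Mcm6* and *Rfc1* as lower. With the hepatocyte marker level as a covariate, 12 members were higher and 5 lower. The part of these transcripts in the members' differences was otherwise not tested. Of the 26 called members, 12 kept their call and direction in every alternative except a test against a 1.2-fold change, namely *Orc3*, *Orc4*, *Mcm4*, *Mcm5*, *Mcm7*, *Cdc45*, *Cdc7*, *Dbf4*, *Pold2*, *Rpa2*, *Dut* and *Chaf1a*. Under the 1.2-fold test *Orc4*, *Mcm4* and *Dut* remained. A kept call could be smaller in size. Without the 3 libraries with the most hepatocyte transcripts, *Orc3* went from -0.28 to -0.16 and *Mcm5* from 0.21 to 0.14. Of the 26 members not called by edgeR, 15 were called in at least 1 alternative, so the line between called and not called is not firm for these small changes.

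Of the 6 genes of the origin recognition complex, 2 were lower and 4 not called. Among the genes with a mean of at least 10 CPM, 22.2% were called lower. Whether the subunits of the complex differ in their change was not tested. *Orc1*, whose product is the largest subunit and joins the complex anew in each cycle, was at 77.6, 73.4 and 77.6 CPM in WT ASC replicates 1 to 3 and 76.9, 73.9 and 80.4 CPM in *Bdh2*-knockout ASC replicates 1 to 3, the order used for all values below. These values overlapped (log2 fold change 0.01, standard error 0.05, adjusted p = 0.843 by edgeR, not called, and of the other sign with library totals). *Orc4* (ENSMUSG00000026761, chr2:48902824-48950277 of GRCm38, minus strand), which encodes an ATPase-fold subunit of the core complex, was at 51.7, 49.986 and 44.1 CPM in WT ASCs and 35.3, 37.7 and 36.2 CPM in *Bdh2*-knockout ASCs. Every knockout library was below every WT library (log2 fold change -0.41, standard error 0.06, adjusted p = 2.40e-04, edgeR). *Orc3*, which encodes another core subunit, was at 86.2, 89.3 and 81.3 CPM in WT ASCs and 69.5, 65.8 and 76.1 CPM in *Bdh2*-knockout ASCs, again without overlap (log2 fold change -0.28, standard error 0.06, adjusted p = 0.00287, edgeR). *Orc2*, *Orc5* and *Orc6* had log2 fold changes of 0.07, -0.11 and -0.11 and were not called, although with library totals *Orc5* and *Orc6* passed as lower. Exons on the opposite strand (*Nif3l1*) cover 29.8% of the exon bases of *Orc2*, and whether counting used strand is not given in the sources used here. Per length, as FPKM (CPM per kilobase of the listed gene length), the complex ran from *Orc4* at 6.51 ± 0.537 FPKM (SD, n = 3) to *Orc6* at 32.3 ± 1.75 FPKM (SD, n = 3) in WT ASCs, a ratio of 4.96, and this ratio was 6.12 in *Bdh2*-knockout ASCs.

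The factors that load the helicase and the inhibitor of loading were not called. *Cdc6*, the loading ATPase, was at 67.7, 56.5 and 61.4 CPM in WT ASCs and 66.6, 66.9 and 66.6 CPM in *Bdh2*-knockout ASCs (log2 fold change 0.11, standard error 0.06, adjusted p = 0.182, edgeR). *Cdt1*, the partner of CDC6 that is destroyed in S phase, was at 163, 169 and 186 CPM in WT ASCs and 183, 192 and 191 CPM in *Bdh2*-knockout ASCs (log2 fold change 0.13, standard error 0.06, adjusted p = 0.0829, edgeR). For both genes the WT values spread more widely than those of the knockout and reached into them. *Gmnn*, which encodes geminin, was at 114, 111 and 109 CPM in WT ASCs and 113, 114 and 118 CPM in *Bdh2*-knockout ASCs (log2 fold change 0.04, standard error 0.05, adjusted p = 0.490, edgeR). Without WT ASC replicate 3, *Cdt1* passed as higher, and without WT ASC replicate 1, *Cdc6* did. Other fits gave smaller log2 fold changes. *Cdt1* was at 0.0058 without the 3 libraries with the most hepatocyte transcripts, and *Cdc6* at 0.048 without WT ASC replicate 2.

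Of the 6 subunits of the MCM2-7 ring, which unwinds DNA ahead of the fork, 5 were higher in *Bdh2*-knockout ASCs and *Mcm6* was not called. The share called higher was 28.7% among the genes with a mean of at least 10 CPM. *Mcm4* (ENSMUSG00000022673, chr16:15623897-15637400 of GRCm38, minus strand) showed the largest change of the 6. Its level was 219.8, 239 and 260.1 CPM in WT ASCs and 313, 318 and 319 CPM in *Bdh2*-knockout ASCs (log2 fold change 0.40, standard error 0.06, adjusted p = 1.52e-04, edgeR). All 3 knockout libraries lay above the highest WT library. *Mcm7* (ENSMUSG00000029730, chr5:138164583-138172422 of GRCm38, minus strand) of the same ring was at 355, 353 and 381 CPM in WT ASCs and 442, 451 and 464 CPM in *Bdh2*-knockout ASCs (log2 fold change 0.32, standard error 0.05, adjusted p = 2.16e-04, edgeR). The groups did not overlap, and 26.0% of the 50-base stretches of *Mcm7* also occur in the annotated gene *Gm5487*, so that part of its count is uncertain. *Mcm2* was at 421, 391 and 461 CPM in WT ASCs and 491, 513 and 490.0 CPM in *Bdh2*-knockout ASCs (log2 fold change 0.23, standard error 0.06, adjusted p = 0.00635, edgeR). *Mcm5* was at 398, 382 and 414 CPM in WT ASCs and 459, 467 and 452 CPM in *Bdh2*-knockout ASCs (log2 fold change 0.21, standard error 0.05, adjusted p = 0.00350, edgeR). MCM2 and MCM5 flank the gate through which the ring closes around DNA, and for both genes the knockout libraries stood above all WT libraries. *Mcm3* was at 423, 409.7 and 437 CPM in WT ASCs and 460.0, 462 and 469 CPM in *Bdh2*-knockout ASCs (log2 fold change 0.13, standard error 0.05, adjusted p = 0.0336, edgeR), a call that was lost with library totals, with the hepatocyte covariate and in 5 of 6 fits that left out 1 library. *Mcm2* lost its call without the 3 libraries rich in hepatocyte transcripts (log2 fold change 0.09). *Mcm6* was at 343, 354 and 371 CPM in WT ASCs and 328, 345 and 343 CPM in *Bdh2*-knockout ASCs (log2 fold change -0.07, standard error 0.05, adjusted p = 0.2502, edgeR). Its groups overlapped, and with library totals or without the hepatocyte-rich libraries it passed as lower.

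**Figure D2:**
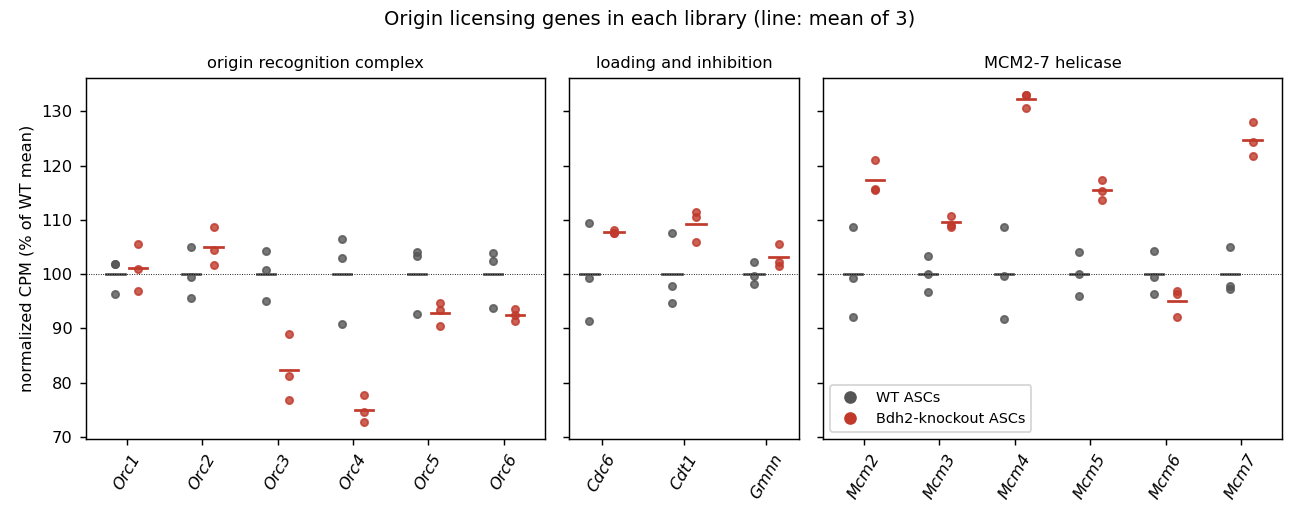
Normalized CPM of the 15 origin licensing genes in each library as a percentage of the mean of the 3 WT ASC libraries (y axis), with points for libraries and a line for the mean of 3. *Mcm4* and *Mcm7* averaged 132% and 125% of the WT mean and *Mcm6* 95.1%, while *Orc4* and *Orc3* averaged 74.9% and 82.3%.

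Because the 6 MCM proteins assemble 1 to 1, their transcripts were also compared per length. In WT ASCs *Mcm3* was highest at 113 ± 3.66 FPKM (SD, n = 3) and *Mcm2* lowest at 61.0 ± 5.05 FPKM (SD, n = 3), a ratio of 1.85, and in *Bdh2*-knockout ASCs the ratio of the same genes was 1.73. The order inside the ring changed by this measure. The ratio of *Mcm4* to *Mcm6* was 0.873 ± 0.0395 (SD, n = 3) in WT ASCs and 1.22 ± 0.0219 in *Bdh2*-knockout ASCs. Per length, *Mcm4* thus stood below *Mcm6* in the 3 WT libraries and above it in the 3 knockout libraries. This order rests on the listed gene lengths, and in CPM *Mcm4* was below *Mcm6* in every library. *Mcm7* over *Mcm6* was 1.07 ± 0.0210 in WT ASCs and 1.41 ± 0.0263 in *Bdh2*-knockout ASCs. These ratios and those that follow were chosen after the values were seen and are given without a test.

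Promoters of the members were searched for E2F words to see whether genes that hold one moved together. RefSeq windows of 250 bases before to 50 bases after the start site (GRCm38.p6) were at hand for 43 of the 52 members. A word was TTTCCCGC, TTTCGCGC, TTTGCCGC or TTTGGCGC on either strand. Such a word occurred in 15 of the 43 members (34.9%), in 4.57% of the 11478 tested genes with a window and in 2.60% of all 27025 genes with one. With only TTTCCCGC and TTTGGCGC the share was 30.2% of the members and 3.31% of the tested genes. The other promoter words differed less: CCAAT was present in 55.8% of the members and 43.1% of the tested genes, GGGCGG in 76.7% and 67.6%, and TATAAA in 6.98% and 8.80%. Sequences of 3 promoters upstream of the annotated start are shown because they hold the same kind of word while their genes had different outcomes, *Mcm5* higher, *Mcm6* not called and *Pola1* lower. They run 5′ to 3′ on the strand of the gene, with the E2F words in capitals (overlapping words form 1 longer capital run).
Mcm5 (chr8:75109326-75109397, plus strand): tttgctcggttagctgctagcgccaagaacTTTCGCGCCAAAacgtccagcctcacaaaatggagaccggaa
Mcm6 (chr1:128359715-128359845, minus strand): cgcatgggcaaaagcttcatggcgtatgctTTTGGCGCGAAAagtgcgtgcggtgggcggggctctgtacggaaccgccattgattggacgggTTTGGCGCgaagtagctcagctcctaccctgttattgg
Pola1 (chrX:93632256-93632323, minus strand): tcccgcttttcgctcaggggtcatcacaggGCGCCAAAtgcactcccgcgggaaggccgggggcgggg

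Genes with an E2F word went in both directions. Of the 15 members with a word, 4 were higher, 3 lower and 8 not called, at a median log2 fold change of 0.11. Of the 28 members with a window but no word, 12 were higher, 4 lower and 12 not called, with a median of 0.08. Beside these counts stand 28.7% higher and 22.2% lower among the genes with a mean of at least 10 CPM. A match is a run of letters and was not tested as a binding site. Among E2F and Rb family genes themselves, 7 of 18 were higher and 3 lower (55.6% called), near the 50.9% of genes with a mean of at least 10 CPM. *E2f1*, an activator of S phase genes, fell from 66.0, 64.6 and 68.1 CPM in WT ASCs to 50.3, 51.3 and 51.5 CPM in *Bdh2*-knockout ASCs without overlap (log2 fold change -0.38, standard error 0.05, adjusted p = 6.53e-05, edgeR). *E2f8*, an E2F that represses the same kind of gene, rose from 38.9, 36.4 and 41.4 CPM to 65.8, 71.8 and 63.9 CPM, the largest called change of this list (log2 fold change 0.79, standard error 0.06, adjusted p = 1.17e-06, edgeR). The repressor-type *E2f4* and the DREAM complex gene *Lin37* rose by log2 fold changes of 0.38 and 0.41. *E2f7*, *E2f3*, *Mybl2* and *E2f6* were also higher, by 0.37, 0.30, 0.29 and 0.28. *E2f2* and the pocket protein gene *Rbl2* fell by 0.30 and 0.39 on the log2 scale. *Rb1*, the retinoblastoma gene, was at 11.8, 10.2 and 11.2 CPM in WT ASCs and 11.3, 11.992 and 9.43 CPM in *Bdh2*-knockout ASCs (log2 fold change -0.02, standard error 0.11, adjusted p = 0.882, edgeR, not called).

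Genes of origin firing were called in both directions. Of the 8 genes of firing and the CMG helicase, 3 were higher, 3 lower and 2 not called. Among the genes with a mean of at least 10 CPM, 28.7% were higher and 22.2% lower. *Dbf4* (ENSMUSG00000002297, chr5:8396973-8422716 of GRCm38, minus strand), the regulatory subunit of the CDC7 kinase, was at 153, 153 and 153 CPM in WT ASCs and 180.5, 185 and 183 CPM in *Bdh2*-knockout ASCs (log2 fold change 0.26, standard error 0.05, adjusted p = 6.21e-04, edgeR). *Cdc7* (ENSMUSG00000029283, chr5:106964322-106984432 of GRCm38, plus strand), the catalytic subunit, was at 46.7, 47.9 and 47.1 CPM in WT ASCs and 38.2, 36.7 and 39.6 CPM in *Bdh2*-knockout ASCs (log2 fold change -0.31, standard error 0.05, adjusted p = 4.30e-04, edgeR). The genotypes did not overlap for either gene, with *Dbf4* higher and *Cdc7* lower in each knockout library. The FPKM ratio of *Dbf4* to *Cdc7* was 1.55 ± 0.0182 in WT ASCs and 2.30 ± 0.106 in *Bdh2*-knockout ASCs (SD, n = 3). *Cdc45* (ENSMUSG00000000028, chr16:18780447-18811987 of GRCm38, minus strand), which joins MCM2-7 as part of the CMG helicase, was at 52.028, 51.3 and 55.3 CPM in WT ASCs and 62.6, 62.7 and 66.6 CPM in *Bdh2*-knockout ASCs (log2 fold change 0.27, standard error 0.05, adjusted p = 0.00126, edgeR). The GINS genes encode the other part of this helicase. *Gins1* was at 43.9, 41.1 and 41.6 CPM in WT ASCs and 36.8, 39.0 and 35.1 CPM in *Bdh2*-knockout ASCs (log2 fold change -0.19, standard error 0.06, adjusted p = 0.0174, edgeR). *Gins2* was at 56.4, 57.3 and 53.0 CPM in WT ASCs and 47.5, 48.7 and 50.2 CPM in *Bdh2*-knockout ASCs (log2 fold change -0.19, standard error 0.05, adjusted p = 0.0114, edgeR). Neither gene had overlapping groups, and both lost their call with the hepatocyte covariate. *Gins1* was also not called in 3 of the 6 fits that left out 1 library, and *Gins2* without *Bdh2*-knockout ASC replicate 1 and without the 3 hepatocyte-rich libraries (log2 fold change -0.12). Of the exon bases of *Gins2*, 67.3% lie under opposite-strand exons of *Gse1*. *Gins3* and *Gins4* had log2 fold changes of -0.15 and -0.03 and were not called, and whether *Cdc45* and the GINS genes, or *Dbf4* and *Cdc7*, differ in their change was not tested. *Cdc45* over *Gins1* was 0.542 ± 0.0309 in WT ASCs and 0.750 ± 0.0638 in *Bdh2*-knockout ASCs per length. *Mcm10*, which helps the helicase to start, rose by a log2 fold change of 0.17, a call lost with library totals and without *Bdh2*-knockout ASC replicate 3.

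The polymerase class had its called genes on 1 side. *Pold2* (ENSMUSG00000020471, chr11:5872180-5878292 of GRCm38, minus strand), an accessory subunit of the lagging-strand polymerase delta, was at 142, 148 and 160.1 CPM in WT ASCs and 119, 118 and 120.2 CPM in *Bdh2*-knockout ASCs (log2 fold change -0.33, standard error 0.05, adjusted p = 3.06e-04, edgeR). The knockout libraries lay within a narrow band below all WT libraries. *Pold1*, the catalytic subunit of the same enzyme, was at 119, 116 and 126 CPM in WT ASCs and 121, 129 and 134 CPM in *Bdh2*-knockout ASCs with overlap (log2 fold change 0.09, standard error 0.06, adjusted p = 0.235, edgeR, not called). *Pole2*, the second subunit of the leading-strand polymerase epsilon, was at 37.9, 32.3 and 32.9 CPM in WT ASCs and 28.6, 28.5 and 30.8 CPM in *Bdh2*-knockout ASCs without overlap (log2 fold change -0.23, standard error 0.07, adjusted p = 0.0174, edgeR). Its call was lost in 6 of 16 alternatives, among them the hepatocyte covariate and the fit without the 3 hepatocyte-rich libraries. Of its 50-base stretches, 11.8% also occur in *Gm49384*. *Pole*, the catalytic subunit, was at 159, 155 and 162 CPM in WT ASCs and 157, 160.4 and 169 CPM in *Bdh2*-knockout ASCs with overlap (log2 fold change 0.03, standard error 0.05, adjusted p = 0.694, edgeR, not called). Whether the subunits of an enzyme differ in their change was not tested.

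In polymerase alpha-primase, which lays down the RNA-DNA primers, the called genes were both catalytic. *Pola1*, the catalytic subunit of polymerase alpha, was at 128, 127 and 125 CPM in WT ASCs and 120.1, 105 and 111 CPM in *Bdh2*-knockout ASCs (log2 fold change -0.18, standard error 0.06, adjusted p = 0.0208, edgeR). *Prim1*, the primase, was at 99.3, 91.9 and 88.3 CPM in WT ASCs and 81.4, 81.2 and 83.6 CPM in *Bdh2*-knockout ASCs (log2 fold change -0.18, standard error 0.06, adjusted p = 0.0174, edgeR). Both genes had separate groups, and each lost its call in 4 of the 6 fits that left out 1 library. *Prim1* also lost its call with the hepatocyte covariate. *Pola2*, *Prim2* and *Pold3*, which encode accessory subunits, had log2 fold changes of 0.08, -0.05 and 0.12 and were not called. The FPKM ratio of *Pola1* to *Pola2* was 0.376 ± 0.0275 in WT ASCs and 0.313 ± 0.0274 in *Bdh2*-knockout ASCs, and that of *Pold1* to *Pold2* was 0.313 ± 0.0109 and 0.419 ± 0.0195. The call count of this class depended on single libraries, with 1 polymerase gene lower without WT ASC replicate 1 or without *Bdh2*-knockout ASC replicate 2, and 1 without the 3 hepatocyte-rich libraries. *Pold2* was called in each of these fits.

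**Figure D3:**
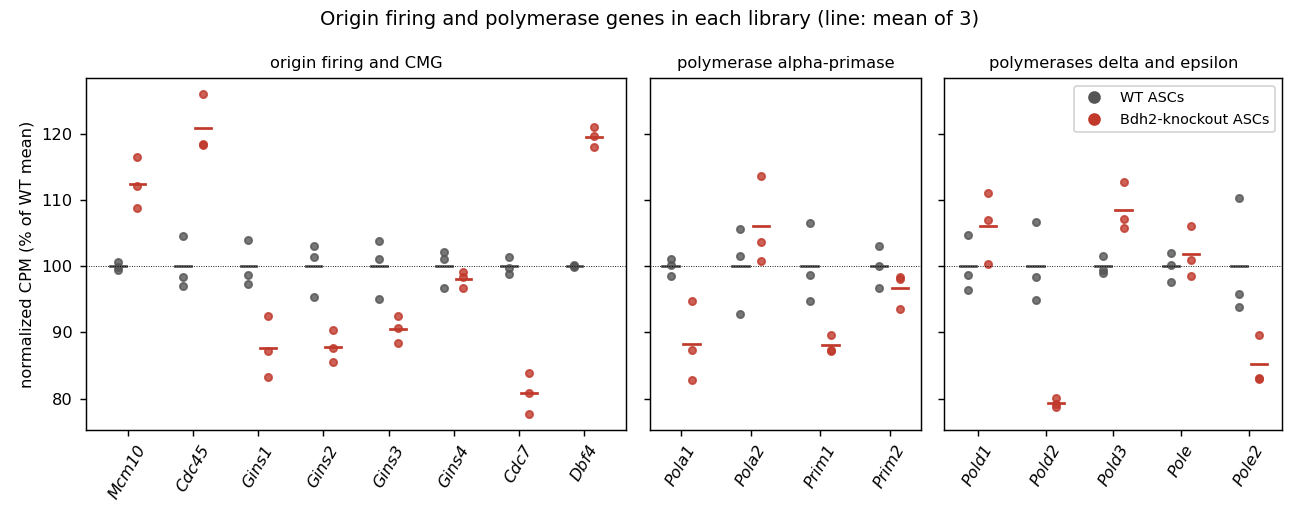
Normalized CPM of the 8 firing and CMG genes and the 9 polymerase genes in each library as a percentage of the mean of the 3 WT ASC libraries (y axis), with points for libraries and a line for the mean of 3. *Cdc45* and *Dbf4* averaged 121% and 120% of the WT mean, whereas *Cdc7* averaged 80.8% and *Pold2* 79.3%.

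Of the 6 genes of the sliding clamp and its loader, 2 were higher, near the 28.7% of genes with a mean of at least 10 CPM. *Pcna*, which encodes the clamp, had the highest level per length of its group, 166 ± 8.97 FPKM (SD, n = 3) in WT ASCs. Its level was 415, 403 and 374 CPM in WT ASCs and 419.5, 404 and 414 CPM in *Bdh2*-knockout ASCs (log2 fold change 0.05, standard error 0.05, adjusted p = 0.408, edgeR, not called). The groups overlapped, and 31.8% of its 50-base stretches also occur in *Pcna-ps2*. Without the 3 hepatocyte-rich libraries *Pcna* passed as higher (log2 fold change 0.16). Of the clamp loader genes, *Rfc5* and *Rfc3* rose by log2 fold changes of 0.20 and 0.17, while *Rfc1*, *Rfc2* and *Rfc4* had values of -0.12, 0.04 and 0.06 and were not called by edgeR. The call of *Rfc3* was lost in 7 of 16 alternatives, that of *Rfc5* was lost with the hepatocyte covariate and without the 3 hepatocyte-rich libraries, and *Rfc1* passed as lower with limma-voom and in 3 further alternatives. *Rpa2*, a subunit of the trimer that coats single-stranded DNA, was at 115, 107 and 117 CPM in WT ASCs and 133, 133 and 129 CPM in *Bdh2*-knockout ASCs without overlap (log2 fold change 0.22, standard error 0.05, adjusted p = 0.00451, edgeR). *Rpa1*, the large subunit, rose by a log2 fold change of 0.17, a call lost with library totals and with the hepatocyte covariate, and *Rpa3*, the small one, had a value of -0.14 and was not called.

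Okazaki fragment, chromatin assembly and fork protection genes had 3 further calls, all higher. *Fen1*, the flap nuclease that trims Okazaki fragments, was at 11.2, 9.31 and 11.3 CPM in WT ASCs and 13.0, 14.3 and 13.3 CPM in *Bdh2*-knockout ASCs without overlap (log2 fold change 0.34, standard error 0.09, adjusted p = 0.0108, edgeR). This is uncertain, since opposite-strand exons of *Gm10143* cover 84.2% of its exon bases, and the call was lost without the 3 hepatocyte-rich libraries. *Gm10143* itself was at 0.843 to 1.54 CPM. *Lig1*, the ligase that seals the fragments, had a log2 fold change of 0.11 and was not called. *Chaf1a*, the large subunit of the histone chaperone CAF-1, was at 110.1, 103 and 114 CPM in WT ASCs and 124, 135 and 128 CPM in *Bdh2*-knockout ASCs without overlap (log2 fold change 0.24, standard error 0.06, adjusted p = 0.00349, edgeR), and 52.5% of its exon bases lie under opposite-strand exons of *Ubxn6*. *Chaf1b*, its partner, had a value of 0.13 and was not called by edgeR (adjusted p = 0.0595) but passed as higher with DESeq2, with limma-voom and in 2 further alternatives. Of the fork protection genes *Timeless* rose by a log2 fold change of 0.17, a call lost in 8 of 16 alternatives, and its partner *Tipin* and the fork scaffold gene *Wdhd1* had values of -0.10 and 0.02.

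Nucleotide supply had the member with the largest change. *Dut* (ENSMUSG00000027203, chr2:125247190-125258608 of GRCm38, plus strand), whose product removes dUTP and thereby provides dUMP for thymidylate synthesis, was at 118, 112 and 130.01 CPM in WT ASCs and 163, 166 and 161 CPM in *Bdh2*-knockout ASCs (log2 fold change 0.44, standard error 0.06, adjusted p = 6.53e-05, edgeR). All knockout libraries lay above all WT libraries. *Rrm2*, the S phase subunit of ribonucleotide reductase, was at 224, 226 and 253 CPM in WT ASCs and 257, 261 and 264 CPM in *Bdh2*-knockout ASCs (log2 fold change 0.15, standard error 0.05, adjusted p = 0.0398, edgeR). Its groups were separate by a narrow margin, and the call was lost in 5 of the 6 fits that left out 1 library. *Rrm1*, the large subunit, was at 255, 231 and 236 CPM in WT ASCs and 244, 239 and 250.5 CPM in *Bdh2*-knockout ASCs (log2 fold change 0.02, standard error 0.05, adjusted p = 0.751, edgeR, not called). *Tk1*, the S phase thymidine kinase, was at 65.9, 59.4 and 68.7 CPM in WT ASCs and 65.0, 65.5 and 66.0 CPM in *Bdh2*-knockout ASCs (log2 fold change 0.02, standard error 0.06, adjusted p = 0.832, edgeR, not called). For *Rrm1* and *Tk1* the knockout values lay inside the WT range, and their small differences took the other sign with library totals. The FPKM ratio of *Rrm2* to *Rrm1* was 3.88 ± 0.381 in WT ASCs and 4.23 ± 0.0841 in *Bdh2*-knockout ASCs, with overlap.

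**Figure D4:**
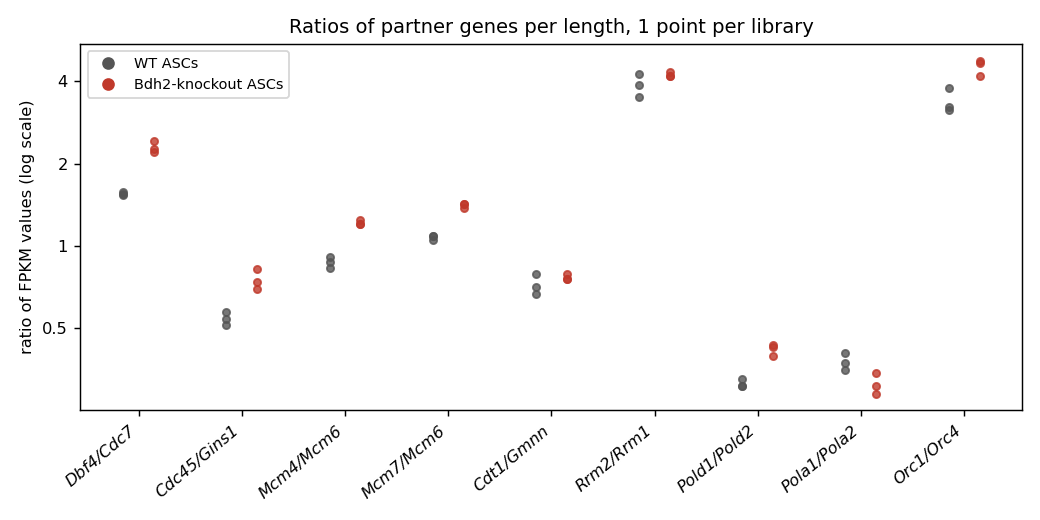
Ratios of FPKM values of partner genes (y axis, log scale) with 1 point per library. The libraries of the genotypes are apart for *Dbf4* over *Cdc7*, which went from 1.55 to 2.30 in the mean, and overlap for *Cdt1* over *Gmnn* and *Rrm2* over *Rrm1*.

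Other genes of the same pathways were called in both directions. Of 39 further replication factors, 6 were higher and 9 lower (38.5% called, beside 50.9% of genes with a mean of at least 10 CPM). Their log2 fold changes had a median of 0.02. The highest were *Ticrr* (0.41), which encodes the firing factor treslin, *Pole3* (0.33), a histone-fold subunit of polymerase epsilon, and the histone chaperone gene *Asf1a* (0.30). The lowest were *Primpol* (-0.84), a primase that restarts stalled forks, *Mcm8* (-0.56), an MCM relative used in recombination, and the histone acetyltransferase gene *Hat1* (-0.38). Of 22 further nucleotide supply genes, 6 were higher and 5 lower. *Umps* (0.39) of pyrimidine synthesis and *Atic* (0.35) and *Gart* (0.35) of purine synthesis were the highest called. *Rrm2b* (-0.67), the reductase subunit used outside S phase, *Dguok* (-0.49), a mitochondrial deoxynucleoside kinase, and *Dhodh* (-0.34), the mitochondrial enzyme of pyrimidine synthesis, were the lowest. Mitosis genes stood on 1 side, with 20 of 26 higher and 0 lower beside 28.7% and 22.2% of the genes with a mean of at least 10 CPM, and with log2 fold changes around a median of 0.22. Their largest changes were *Cdc20* (0.71), the activator of the anaphase-promoting complex, the kinase gene *Plk1* (0.65) and the kinesin gene *Kif20a* (0.55). The lists were not tested against each other.

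Position in the genome moved with some of these calls. Of the 494 tested genes of chromosome 16, 221 (44.7%) were higher and 44 (8.91%) lower, and the median log2 fold change was 0.19, while the medians of the other chromosomes with members ran from -0.07 to 0.02. Members on chromosome 16 were *Mcm4* (0.40), *Cdc45* (0.27), *Chaf1b* (0.13) and *Rfc4* (0.06). Tested genes within 5 Mb of them had median log2 fold changes of 0.21, 0.17, 0.20 and 0.18. *Chaf1b* and *Rfc4* were below the median of their neighbours, *Mcm4* and *Cdc45* above it. Without chromosome 16, 15 of 48 members were higher and 9 lower, with a median of 0.04. The part of this chromosome-wide difference in the values of *Mcm4* and *Cdc45* was not tested. Elsewhere, tested genes within 5 Mb of *Gmnn* on chromosome 13 had a median of -0.40, with *Gmnn* itself at 0.04. Of the genes named above from the other lists, *Umps* and *Gart* also lie on chromosome 16.

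**Figure D5:**
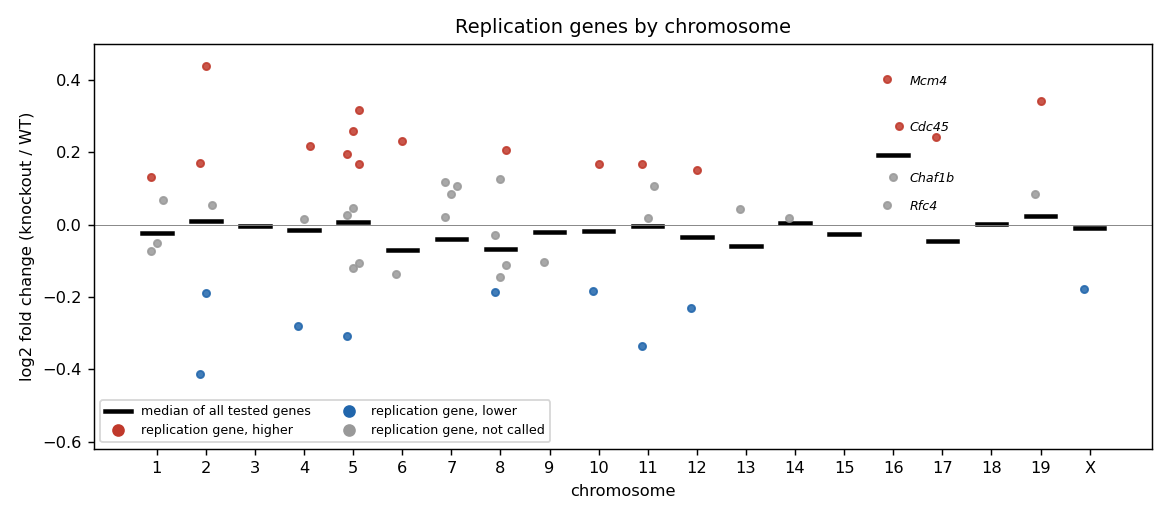
Log2 fold changes of the 52 replication genes (points, coloured by edgeR call) by chromosome, with a black line for the median of all tested genes of the chromosome. The line stands at 0.19 for chromosome 16, where *Mcm4*, *Cdc45*, *Chaf1b* and *Rfc4* lie.

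Several members share a start region with a gene on the opposite strand, and neighbours that start within 1000 bases were read beside them. Of 17 such neighbours that were tested, 4 were lower, near the 20.8% of all tested genes, and 13 were not called by edgeR. *Prkdc*, the DNA-dependent protein kinase gene, starts 466 bases from *Mcm4* and was at 87.8, 88.3 and 84.4 CPM in WT ASCs and 81.7, 77.2 and 84.4 CPM in *Bdh2*-knockout ASCs (log2 fold change -0.10, standard error 0.05, adjusted p = 0.153 by edgeR, not called). *Slc25a40*, 134 bases from *Dbf4*, was lower (-0.17, adjusted p = 0.0415 by edgeR) where *Dbf4* was higher. *Rars2*, 13 bases from *Orc3*, was not called (-0.09). *Smyd4* beside *Rpa1* and *Tmem258* beside *Fen1* had values of -0.13 and -0.14 and were not called either. *Gm10614*, a non-coding transcript 227 bases from *Gins2*, was lower (-1.23, adjusted p = 0.0110 by edgeR) as *Gins2* was. The other lower neighbours were *Pxmp2* beside *Pole* (-0.37, adjusted p = 0.00904 by edgeR) and *Socs4* beside *Wdhd1* (-0.17, adjusted p = 0.0480 by edgeR), whose members were not called. The neighbours named were chosen after their values were seen.

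The spread between replicates was larger in WT ASCs. The SD relative to the mean was larger in WT than in *Bdh2*-knockout ASCs for 38 of the 52 members (73.1%) and for 61.7% of all tested genes. The median of this relative SD over the members was 4.72% in WT ASCs and 2.68% in *Bdh2*-knockout ASCs, against 7.91% and 6.17% over all tested genes. In *Mcm2*, *Mcm4*, *Rrm2* and *Dut*, which were chosen here after their values were seen, WT ASC replicate 3, which had the fewest hepatocyte transcripts of its group, was the WT library nearest to the knockout. In *Pold2* and *Mcm10*, also called members, WT ASC replicate 3 was the WT library farthest from the knockout. Without WT ASC replicate 3, 33 members were called, and without any 1 of the other 5 libraries 19 to 21.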

How the data were processed

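RNA-Seq was available for 3 WT ASC and 3 *Bdh2*-knockout ASC samples, grouped by the labels. The authors trimmed adaptors, discarded reads of low quality, aligned with Hisat2 (2.0.5 in the submitters' processing notes) to GRCm38, counted with FeatureCounts and deposited raw counts for 54715 genes. The annotation release, the strand setting and the handling of reads with several matches are not given in the sources used here. The authors' own tests used DESeq2.

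Counts were analysed with edgeR 4.0.16 in R 4.3.3 (TMM, filterByExpr, glmQLFTest, no covariates, Benjamini-Hochberg over 16758 genes, threshold 0.05, two-sided). The code was tested on simulated data. CPM uses the TMM library size, and FPKM divides it by the listed length. Promoters came from RefSeq (GRCm38.p6). Depth per sample was 18927748 to 28333541 counts.

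The members and lists were chosen with earlier results of these data known. Values in every sample are given for the up to 5 largest called changes per class and direction and for *Orc1*, *Cdc6*, *Cdt1*, *Gmnn*, *Mcm2* to *Mcm7*, *Cdc45*, *Pola1*, *Pold1*, *Pole*, *Pcna*, *Rrm1*, *Rrm2* and *Tk1*. Of the other lists, up to 3 largest called changes per direction are named, plus *E2f1*, *Rb1*, *Alb* and *Bdh2*. The remaining called E2F and Rb family genes are named as well.

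The alternatives were DESeq2 1.42.0, median-of-ratios factors, library totals, limma-voom (limma 3.58.1), no filter, a filter at a mean count of 50, a block on the replicate number, a 1.2-fold test and each sample left out. A hepatocyte covariate and the fit without the 3 libraries richest in hepatocyte transcripts were added after seeing the data. Shared stretches are 50 bases long. Plots were made with matplotlib 3.10.9.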

Additional observations from a re-analysis of the deposited data

How the results depend on the processing

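The largest shift came from testing against a 1.2-fold change, which left 2 members higher and 1 lower (origin licensing 1 and 1, fork factors 0 and 0, polymerases 0 lower, nucleotide supply 1 higher) and 2457 of the 6996 calls over all genes. Without this threshold the fork factors had 10 higher and 3 lower calls by edgeR. With library totals 11 members were higher and 16 lower (origin licensing 5 lower, fork factors 6 higher and 7 lower, nucleotide supply 1 higher), and the median of the members was -0.0033. Of the 9 members that took the other sign there, *Rfc2*, *Rfc4* and *Wdhd1* among them, those given with values in every sample had log2 fold changes of -0.043 for *Orc1*, -0.014 for *Gmnn*, -0.031 for *Pole*, -0.0038 for *Pcna*, -0.036 for *Rrm1* and -0.040 for *Tk1*, none of them called. With the hepatocyte covariate 5 members were lower (fork factors 1, polymerases 2) and 1 nucleotide supply gene higher, *Orc1* was at -0.023 and *Tk1* at -0.023. Without the 3 libraries richest in hepatocyte transcripts 1 polymerase gene was lower, 1 nucleotide supply gene higher and *Tk1* at -0.071. *Orc5*, *Rfc2*, *Rpa3* and *Lig1* also took the other sign in this fit. The cause of these shifts was not tested. With each sample left out in turn, 5 to 13 members were lower, 2 to 4 in origin licensing, 1 to 5 in fork factors and 1 to 4 in polymerases, with 0 to 1 polymerase genes and 1 to 2 nucleotide supply genes higher. The libraries behind these ranges were WT ASC replicate 1 (5 members and 1 polymerase gene lower without it), WT ASC replicate 3 (4 origin licensing genes and 5 fork factors lower and 1 polymerase gene higher), *Bdh2*-knockout ASC replicate 1 (5 members, 1 fork factor and 2 polymerase genes lower), *Bdh2*-knockout ASC replicate 2 (1 polymerase gene lower) and *Bdh2*-knockout ASC replicate 3 (2 polymerase genes lower), and *Rrm2* lost its call without any library but WT ASC replicate 3. *Orc1* then ran from -0.012 to 0.049, *Rrm1* from -0.0070 to 0.066 and *Tk1* from -0.040 to 0.067. DESeq2, median-of-ratios factors, limma-voom and both other filters called 26 to 28 members. Same-numbered replicates deviated from their group means with correlations of -0.156, 0.00462 and 0.184, so the numbers were not taken as pairs, and not every sample correlated best with its own number. The replicate block called 24 members, without *Mcm3* and *Rrm2* (1 nucleotide supply gene higher). The members with the fewest counts had larger standard errors, 0.09 for *Fen1* and 0.07 for *Gins3* beside 0.05 for *Mcm3*.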
